A study of Homo sapiens with 12 samples.

Results

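The genes described here are 48 genes of ribosome biogenesis and the nucleolus that are commonly linked to the transcription factor MYC. They were taken by symbol, and all 48 were found among the 60666 Ensembl gene IDs for which reads were counted. All 48 also passed the filter on low counts, which kept 23493 genes for testing. The lowest count of any of them in a library was 66, for NOP16 in KMS-12, and their levels and their response to JQ1 were followed in 3 lines beside MYC.

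RNA was sequenced from the established human multiple myeloma lines KMS-11, KMS-12 and RPMI8226, in a series built around drug control of a long non-coding RNA. Each line was held for 72 h in 1 µM JQ1, dissolved in DMSO, or was given the same volume of DMSO, and no separate time is stated for DMSO. There were 2 libraries in each of the 6 groups, 12 in all, with between 15424512 and 27366499 counts per library. The genotype is given as WT in every group and no other agent is named. JQ1 binds the bromodomains of the BET proteins, which read acetylated histones at active genes.

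Ribosomes are built in the nucleolus, where RNA polymerase I copies the ribosomal DNA into a long precursor RNA. Small nucleolar RNAs guide the chemical modification of that precursor within protein particles of the box C/D and box H/ACA kinds, and large sets of assembly factors fold and cut it into the small (40S) and large (60S) subunits. MYC is known to raise the output of RNA polymerase I and to bind the promoters of many of these genes at the E-box CACGTG. Myeloma cells are known for high MYC and for a fall of MYC under BET inhibitors.

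The labels do not say whether the libraries of a group came from separate cultures, so the spread behind each p-value is that of these libraries and may be technical. Counts of the 2 libraries of a group were farther apart than reads drawn from one pool would be, by a chi-square per degree of freedom of 5.639 to 22.3. Plasma cell markers summed to CPM of 1936 to 2915 in JQ1 libraries and 2699 to 3902 in DMSO libraries, and all 8 had reads in every library. Some were near absent in places, with 9 to 21 reads of CD38 in the KMS-11 libraries, 25 of POU2AF1 in each KMS-12 JQ1 library and 17 and 12 of TNFRSF17 in RPMI8226 JQ1. TNFRSF17 had a log2 change of -4.05 in the average, MZB1 of -1.93 (-0.20 in RPMI8226) and POU2AF1 of -0.81. PRDM1 went the other way at 1.18, and XBP1 averaged 0.15, CD38 0.00, SDC1 -0.02 and IRF4 -0.06. The part of such markers in the results was not tested. The 5 T cell markers summed to 0.0844 to 1.06 CPM with JQ1 and 1.53 to 5.94 CPM with DMSO, with CD3D at 0 or 1 read in every library. The 5 monocyte markers summed to 0.101 to 3 CPM with JQ1 and 0.35 to 2.26 CPM with DMSO, with MARCO at 0 reads. The 5 markers of stroma and epithelium summed to 3.51 to 11 CPM with JQ1 and 17.6 to 33.9 CPM with DMSO, mostly from EPCAM. FGFR3 was high in the KMS-11 libraries only, at 17205 reads or more against 0 to 2 in the other lines. HEXIM1, a gene known to rise under BET inhibitors, had 96.2 to 142 CPM with JQ1 and 20.9 to 30.3 CPM with DMSO.

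Under JQ1 the 48 genes did not move as a block. Set against the bulk of the transcriptome by TMM scaling, 12 were higher and 17 lower in the average of the 3 lines at an adjusted p under 0.05 (edgeR quasi-likelihood F test, Benjamini-Hochberg over all genes). Over all genes tested, 22.3% were higher and 26.7% lower. The median log2 fold change of the 48 genes was -0.09, against -0.10 over all genes tested, and no member changed by 2-fold or more. The values ran from -0.70 for GAR1, a protein of the H/ACA particle, to 0.82 for BOP1, a 60S assembly factor. In KMS-11, 6 were higher and 6 lower, where 17.3% and 21.2% of all genes were called. KMS-12 had 10 higher and 19 lower, beside 20.2% and 25.7% of all genes. RPMI8226 had 5 higher and 6 lower, beside 13.6% and 18.6%. The share of members called was thus above the share of all genes in the average, at 60.4% against 49%, and in KMS-12, at 60.4% against 46%, and below it in KMS-11 (25% against 38.5%) and RPMI8226 (22.9% against 32.2%). Among the 10130 genes with a mean of at least 10 CPM, which 43 members reached, it was below in each comparison, at 62.8% against 70.5% in the average, 62.8% against 65.1% in KMS-12, 34.9% against 58.4% in KMS-11 and 27.9% against 47.6% in RPMI8226. In the average 6 of the 43 were then higher and 21 lower, beside 34.5% and 36% of those genes, and in KMS-11 10 were lower, beside 30.1%. These splits depend on how the libraries are scaled, and with library size alone 38 of the 48 were lower in the average, as set out below with the reads taken by MALAT1. These are bulk RNA libraries, so fewer cells of a state and less RNA per cell cannot be told apart.

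**Figure D1:**
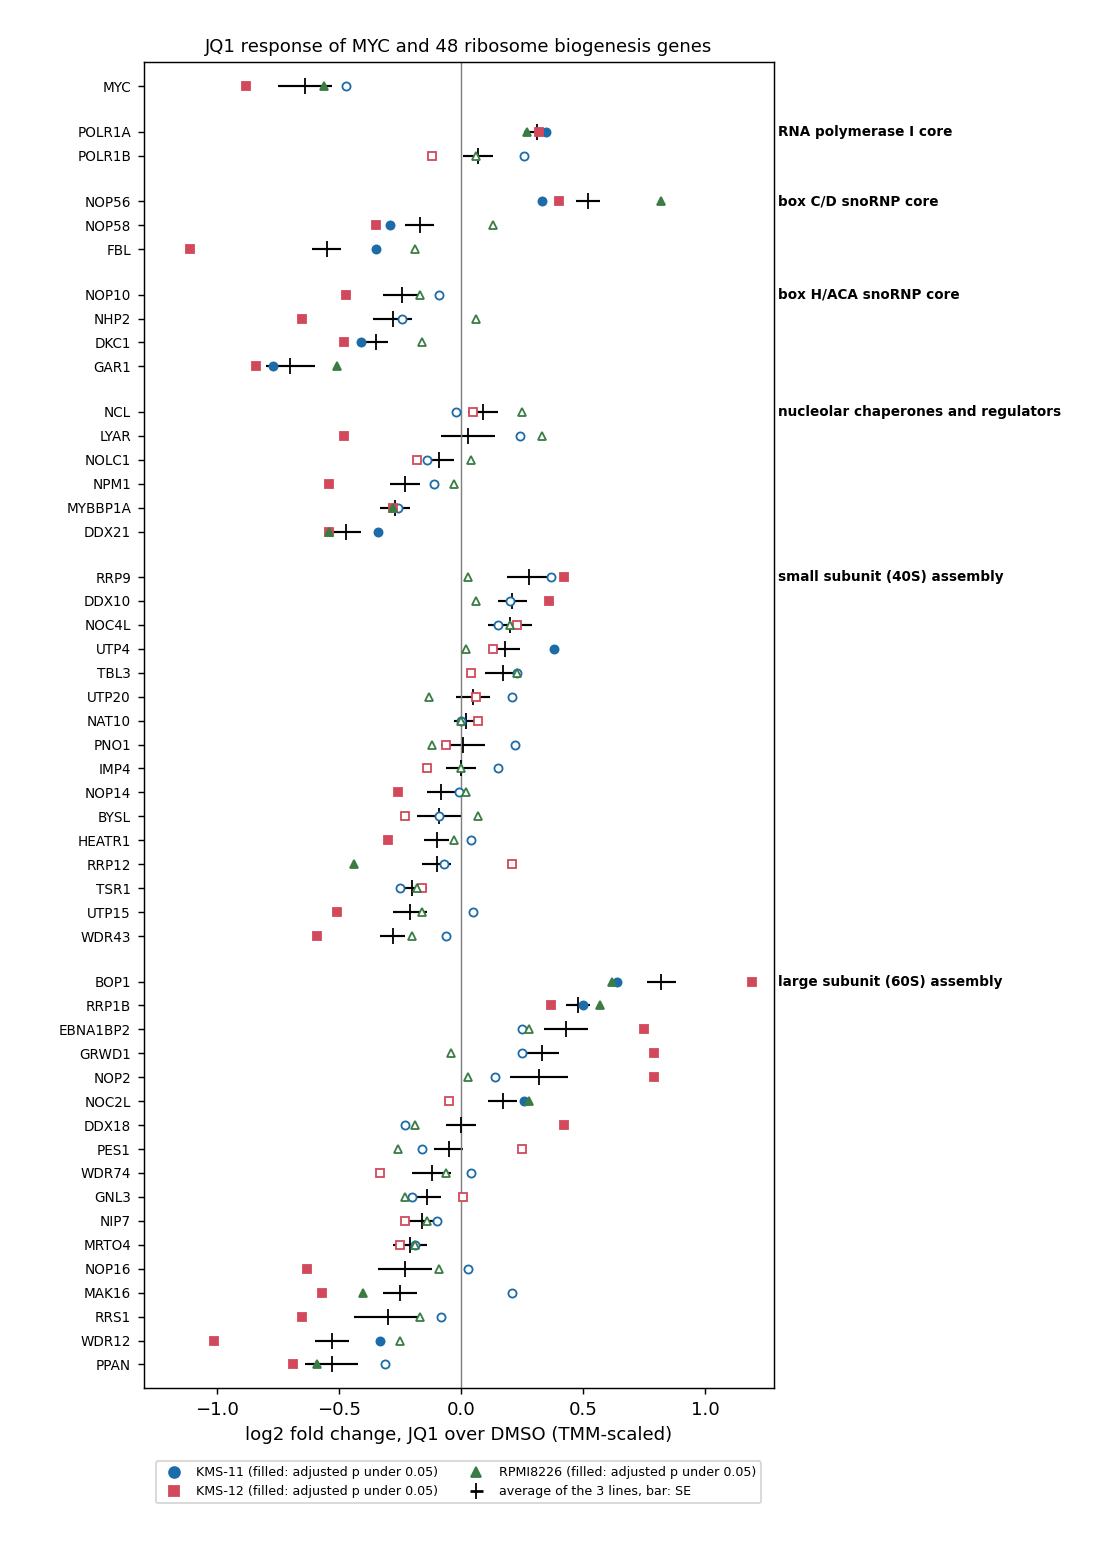
JQ1 response of MYC and the 48 genes by role, as the log2 fold change of JQ1 over DMSO with TMM scaling. Circles are KMS-11, squares KMS-12 and triangles RPMI8226, filled where the adjusted p is under 0.05, and the black tick with its bar is the average of the 3 lines with its SE. Averages above and below 0, called or not, stand side by side in most roles. The 4 box H/ACA genes all lie below 0 in the average, and the squares of KMS-12 reach farthest to both sides.

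MYC (ENSG00000136997) itself fell in the average of the lines. It had 362 and 241 CPM in KMS-11 JQ1 libraries, against 478 and 359 CPM in KMS-11 DMSO. In KMS-12 the values were 205 and 192 CPM with JQ1 and 384 and 349 CPM with DMSO. RPMI8226 gave 345 and 312 CPM with JQ1 and 530 and 437 CPM with DMSO. The JQ1 and DMSO libraries were thus separate in KMS-12 and RPMI8226 and overlapped in KMS-11. The log2 change was -0.64 (SE 0.11, n = 2 libraries per group; edgeR adjusted p = 0.000415) in the average and -0.88 (SE 0.19; edgeR adjusted p = 0.00247) in KMS-12. It was -0.56 (SE 0.19; edgeR adjusted p = 0.041) in RPMI8226, a call lost in 11 of 22 alternatives. In KMS-11 it was -0.47 (SE 0.19; edgeR adjusted p = 0.0679), which did not pass, and single libraries moved it widely, to -0.80 (edgeR adjusted p = 0.00114) without JQ1 replicate 1, to -0.21 without JQ1 replicate 2 and to -0.25 without DMSO replicate 1, neither of which passed (largest edgeR adjusted p = 0.481). A difference in the MYC response between the lines did not pass (edgeR adjusted p = 0.456). GAR1 was the only member whose average lay below that of MYC. Another 26 members had averages between that of MYC and 0.

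An E-box, CACGTG on either strand (the motif reads the same on both), was looked for in windows from 250 bases before to 50 bases after the RefSeq gene start on GRCh38.p14. Windows were on hand for 40 of the 48 genes and not for NOP58, NOLC1, RRP12, BOP1, RRS1, RRP1B, DDX18 and MAK16. The motif was in 16 of the 40 windows (40%), against 1111 of 11428 windows (9.72%) of protein-coding genes tested. In 15 of the 40 (37.5%) its first base lay within 50 bases of the start, against 449 (3.93%) of those protein-coding windows. The 48 genes were put together as MYC-linked genes, so this share is a description of the list. By response in the average, the motif was in 4 of 10 windows of genes called higher (40%), 5 of 15 of those called lower (33.3%) and 7 of 15 of those not called (46.7%). It was thus present in each class. The 8-letter motif CCGGAAGT, of the kind ETS factors bind, was in 7 of the 40 windows on either strand (17.5%) and in 8.3% of the windows of protein-coding genes tested. The windows below show, 5′ to 3′ on the strand of the gene, the 3 members of each class whose E-box lies nearest to the start, with the E-box in capitals. The first 3 genes were called higher with JQ1, the next 3 lower and the last 3 neither way.
RRP9 (chr3:51941892-51941921, minus strand): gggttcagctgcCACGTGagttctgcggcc
UTP4 (chr16:69132621-69132650, plus strand): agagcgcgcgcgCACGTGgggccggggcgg
NOP2 (chr12:6568242-6568271, minus strand): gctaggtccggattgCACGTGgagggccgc
WDR43 (chr2:28894658-28894687, plus strand): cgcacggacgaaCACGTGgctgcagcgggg
FBL (chr19:39846356-39846385, minus strand): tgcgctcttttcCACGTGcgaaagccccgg
NOP10 (chr15:34343130-34343159, minus strand): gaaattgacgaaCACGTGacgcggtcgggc
PNO1 (chr2:68157885-68157914, plus strand): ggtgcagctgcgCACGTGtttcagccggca
UTP20 (chr12:101280083-101280112, plus strand): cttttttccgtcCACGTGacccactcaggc
PES1 (chr22:30591880-30591909, minus strand): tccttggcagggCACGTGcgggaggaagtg

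Distances are those of the first base of the E-box, which runs on from there in the direction of the gene. By this measure the E-box lay 5 bases before the start in RRP9, 16 before it in UTP4 and 35 after it in NOP2. It stood 3 bases after the start in WDR43, 6 after it in FBL and 11 before it in NOP10. In the genes that were not called it was 9 bases after the start in PNO1, 10 before it in UTP20 and 13 after it in PES1. The log2 averages of these 9 genes ran from -0.55 in FBL to 0.32 in NOP2.

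Of the core of RNA polymerase I, the larger subunit POLR1A rose in all 3 lines and POLR1B did not pass in any. POLR1A (ENSG00000068654) had 169 and 186 CPM with JQ1 against 138 and 141 CPM with DMSO in KMS-11. The values were 135 and 139 CPM with JQ1 against 109 and 111 CPM with DMSO in KMS-12, and 166 and 173 CPM with JQ1 against 138 and 143 CPM with DMSO in RPMI8226. Every JQ1 library lay above every DMSO library of its line. The average was a log2 change of 0.31 (SE 0.05; edgeR adjusted p = 4.08e-05), and turned to -0.04 with library size alone. The RPMI8226 call, at 0.27 (SE 0.09; edgeR adjusted p = 0.0234), was lost without any single RPMI8226 library. The KMS-11 call was lost without KMS-11 JQ1 replicate 2, and the KMS-12 call without KMS-12 JQ1 replicate 2 or KMS-12 DMSO replicate 1. POLR1B (ENSG00000125630) had 53.6 and 51.2 CPM with JQ1 against 47.3 and 40.3 CPM with DMSO in KMS-11. KMS-12 gave 83.4 and 86.2 CPM with JQ1 against 90.1 and 93.8 CPM with DMSO, and RPMI8226 gave 75.5 and 82.0 CPM with JQ1 against 74.0 and 76.7 CPM with DMSO. Its average was 0.07 (SE 0.06; edgeR adjusted p = 0.364), and a difference between both subunits was not tested.

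The 3 box C/D proteins among the 48 genes went different ways, with NOP56 higher and FBL and NOP58 lower in the average. NOP56 and NOP58 form the scaffold on which the guide RNA sits, and FBL, fibrillarin, is the methyltransferase. NOP56 (ENSG00000101361) had 79.7 and 74.9 CPM with JQ1 against 63.4 and 59.8 CPM with DMSO in KMS-11. In KMS-12 it had 118 and 118 CPM with JQ1 against 89.1 and 90.8 CPM with DMSO, and in RPMI8226 160 and 154 CPM with JQ1 against 84.1 and 93.1 CPM with DMSO. The groups did not overlap in any line, and the gap was widest in RPMI8226. The log2 average was 0.52 (SE 0.05; edgeR adjusted p = 1.94e-07), with KMS-11 at 0.33 (SE 0.09), KMS-12 at 0.40 (SE 0.09) and RPMI8226 at 0.82 (SE 0.09). The KMS-12 value turned to -0.37 with library size alone.

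FBL (ENSG00000105202) had 81.0 and 88.5 CPM with JQ1 against 104 and 112 CPM with DMSO in KMS-11. KMS-12 held 22.0 and 26.9 CPM with JQ1 against 55.8 and 50.2 CPM with DMSO, while RPMI8226 held 46.9 and 49.4 CPM with JQ1 against 55.1 and 55.1 CPM with DMSO. The JQ1 libraries were the lower ones in each line. FBL had a log2 average of -0.55 (SE 0.06; edgeR adjusted p = 7.49e-07) and a fall of 1.11 in KMS-12 (SE 0.11; edgeR adjusted p = 2.88e-07). The value in RPMI8226 was -0.19 (SE 0.11; edgeR adjusted p = 0.189), and the responses of the lines differed (edgeR adjusted p = 0.000382). NOP58 (ENSG00000055044) had 62.2 and 55.5 CPM with JQ1 against 71.3 and 73.0 CPM with DMSO in KMS-11. It had 99.0 and 101 CPM with JQ1 against 122 and 133 CPM with DMSO in KMS-12, and 91.2 and 105 CPM with JQ1 against 84.2 and 95.1 CPM with DMSO in RPMI8226, where the groups overlapped. Its average of -0.17 (SE 0.06; edgeR adjusted p = 0.0228) was lost in 6 of the 12 fits that each leave out 1 library, where it lay between -0.20 and -0.14.

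All 4 proteins of the box H/ACA particle, which turns uridine into pseudouridine and also binds telomerase RNA, fell in the average of the lines. The median of their log2 changes was -0.31, against -0.10 over all genes tested, and 4 of 4 were lower in the average under each of the 4 other scalings and at a mean of at least 10 CPM. In KMS-12 all 4 were lower, in KMS-11 2 and in RPMI8226 1, beside 25.7%, 21.2% and 18.6% of all genes, and 26.7% in the average. GAR1 (ENSG00000109534) had 6.14 and 7.23 CPM with JQ1 against 11.3 and 11.4 CPM with DMSO in KMS-11. In KMS-12 GAR1 had 9.29 and 11.4 CPM with JQ1 against 16.8 and 20.2 CPM with DMSO, and in RPMI8226 7.97 and 7.25 CPM with JQ1 against 10.7 and 11 CPM with DMSO. No JQ1 library reached a DMSO library of its line. GAR1 fell by 0.70 in the average (SE 0.10; edgeR adjusted p = 1.64e-05), to 0.614 of the DMSO level. Its call in RPMI8226 (-0.51, SE 0.18; edgeR adjusted p = 0.0401) was lost without any single RPMI8226 library and without either KMS-12 DMSO library.

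DKC1 (ENSG00000130826), the pseudouridine synthase of the particle, had 57.5 and 59.8 CPM with JQ1 against 82.3 and 73.1 CPM with DMSO in KMS-11. It had 60 and 56.9 CPM with JQ1 against 80.4 and 83.0 CPM with DMSO in KMS-12, and 82.5 and 85.1 CPM with JQ1 against 90.5 and 96.9 CPM with DMSO in RPMI8226. Its libraries also separated in each line, with an average of -0.35 (SE 0.05; edgeR adjusted p = 3.06e-05). NHP2 (ENSG00000145912), a small RNA-binding protein of the particle, had 31.7 and 36.9 CPM with JQ1 against 39.7 and 41.3 CPM with DMSO in KMS-11. It had 11 and 13.4 CPM with JQ1 against 20.8 and 17.5 CPM with DMSO in KMS-12, and 24.6 and 28.8 CPM with JQ1 against 26.0 and 25.1 CPM with DMSO in RPMI8226. NHP2 thus overlapped between the groups in RPMI8226, and its average was -0.28 (SE 0.08; edgeR adjusted p = 0.00898). NOP10, the remaining protein, averaged -0.24 (SE 0.08; edgeR adjusted p = 0.0114).

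Among 6 nucleolar chaperones and regulators, 3 fell and none rose in the average, beside 26.7% lower and 22.3% higher of all genes. DDX21 (ENSG00000165732), an RNA helicase of the nucleolus, fell in every line. It had 119 and 120 CPM with JQ1 against 155 and 147 CPM with DMSO in KMS-11, 90 and 92.1 CPM with JQ1 against 124 and 141 CPM with DMSO in KMS-12, and 132 and 164 CPM with JQ1 against 207 and 223 CPM with DMSO in RPMI8226. The groups were separate in each line, and the average was -0.47 (SE 0.06; edgeR adjusted p = 3.24e-06). MYBBP1A (ENSG00000132382), a nucleolar regulator of transcription, had 69.6 and 79.1 CPM with JQ1 against 95.1 and 82.7 CPM with DMSO in KMS-11. It had 45.7 and 50.4 CPM with JQ1 against 57.3 and 59.7 CPM with DMSO in KMS-12, and 70.6 and 74.3 CPM with JQ1 against 86.0 and 89.3 CPM with DMSO in RPMI8226. Its log2 values lay between -0.28 and -0.26 in the lines, without passing in KMS-11, and the average was -0.27 (SE 0.06; edgeR adjusted p = 0.000834). Of the 12 fits that each leave out 1 library, 4 lost the KMS-12 call of MYBBP1A and 8 lost its RPMI8226 call.

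NPM1 (ENSG00000181163), nucleophosmin, a histone and ribosome chaperone, had 277 and 296 CPM with JQ1 against 292 and 328 CPM with DMSO in KMS-11. KMS-12 gave 125 and 126 CPM with JQ1 against 192 and 174 CPM with DMSO, and RPMI8226 gave 274 and 315 CPM with JQ1 against 288 and 311 CPM with DMSO. The groups overlapped in KMS-11 and RPMI8226 and were far apart in KMS-12. The average of -0.23 (SE 0.06; edgeR adjusted p = 0.0031) came with -0.54 in KMS-12 (SE 0.10; edgeR adjusted p = 0.000255), and the responses differed between the lines (edgeR adjusted p = 0.0192). NCL, nucleolin, averaged 0.09, NOLC1, a chaperone of the guide particles, averaged -0.09, and LYAR, a nucleolar zinc finger protein, averaged 0.03, with none of them called.

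The 16 small subunit factors had changes of small size, with a median of 0.01 and a range from -0.28 to 0.28. In the average 4 were higher and 3 lower, beside 22.3% and 26.7% of all genes. Most of them belong to the particle that forms around the early precursor RNA. With library size alone 13 were lower and none higher, beside 44.1% and 9.01% of all genes. At a mean of at least 10 CPM 6 were lower and none higher, beside 36% and 34.5% of the genes so filtered. WDR43 (ENSG00000163811), a UTP-A factor at the start of the precursor, had 80.7 and 90 CPM with JQ1 against 88.9 and 88.8 CPM with DMSO in KMS-11. It had 69.9 and 71.8 CPM with JQ1 against 103 and 110 CPM with DMSO in KMS-12, and 81.4 and 89.5 CPM with JQ1 against 97.5 and 98.8 CPM with DMSO in RPMI8226. The fall in KMS-12 was 0.59 (SE 0.09; edgeR adjusted p = 5.05e-05), and the average was -0.28 (SE 0.05; edgeR adjusted p = 0.000251). TSR1 (ENSG00000167721), a factor of late 40S maturation, had 47.6 and 44.9 CPM with JQ1 against 57.1 and 52.6 CPM with DMSO in KMS-11. It had 31.8 and 31.8 CPM with JQ1 against 37.0 and 34.0 CPM with DMSO in KMS-12, and 49.6 and 55.2 CPM with JQ1 against 58.7 and 60.1 CPM with DMSO in RPMI8226. TSR1 was lower in each line without passing in any, and its average of -0.20 (SE 0.06; edgeR adjusted p = 0.0111) passed.

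DDX10 (ENSG00000178105), an RNA helicase, was among the rises. Its values were 35.0 and 39.8 CPM with JQ1 against 35.2 and 29.6 CPM with DMSO in KMS-11, 103 and 98.9 CPM with JQ1 against 73.7 and 83.6 CPM with DMSO in KMS-12, and 65.7 and 68.5 CPM with JQ1 against 62.5 and 66.5 CPM with DMSO in RPMI8226. The groups were separate in KMS-12 only, and the average of 0.21 (SE 0.06; edgeR adjusted p = 0.0103) turned to -0.15 with library size alone. The other rises were RRP9, a protein of the U3 particle, at 0.28, UTP4 at 0.18 and TBL3 at 0.17, both U3 processome factors. UTP15, also of UTP-A, was the remaining fall at -0.21. The acetyltransferase NAT10 had a log2 value of 0.00 in KMS-11 and RPMI8226 and of 0.07 in KMS-12, with overlapping groups in each line.

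The 17 large subunit factors had log2 averages of -0.53 to 0.82 and a median of -0.12. In the average 6 were higher and 5 lower, beside 22.3% and 26.7% of all genes. BOP1 (ENSG00000261236), PES1 (ENSG00000100029) and WDR12 (ENSG00000138442) form the PeBoW complex, which is needed for the large subunit, and their RNAs moved apart. BOP1 had 56.9 and 56.6 CPM with JQ1 against 35.3 and 37.7 CPM with DMSO in KMS-11, 115 and 121 CPM with JQ1 against 53.2 and 50.5 CPM with DMSO in KMS-12, and 77.5 and 66.1 CPM with JQ1 against 49.4 and 43.9 CPM with DMSO in RPMI8226. Its JQ1 libraries were the higher ones in each line, by more than the spread within any group. The log2 average was 0.82 (SE 0.06; edgeR adjusted p = 3.12e-09), a 1.76-fold rise, with 1.19 (SE 0.10) in KMS-12.

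WDR12 had 37.2 and 36.5 CPM with JQ1 against 52.5 and 40.4 CPM with DMSO in KMS-11, 33.4 and 32.7 CPM with JQ1 against 67.3 and 65.5 CPM with DMSO in KMS-12, and 44.3 and 52.8 CPM with JQ1 against 55.9 and 59.6 CPM with DMSO in RPMI8226. It fell by 0.53 in the average (SE 0.07; edgeR adjusted p = 5.49e-06) and by 1.01 in KMS-12 (SE 0.12; edgeR adjusted p = 3.06e-06), to 0.498 of the DMSO level there. The KMS-11 value of -0.33 (SE 0.12; edgeR adjusted p = 0.0403) was lost in 9 of the 12 fits that each leave out 1 library, and stood at -0.13 without DMSO replicate 1 (edgeR adjusted p = 0.461). PES1 lay between its partners. It had 48 and 58.2 CPM with JQ1 against 58.1 and 60.3 CPM with DMSO in KMS-11, 39.7 and 40.8 CPM with JQ1 against 33.0 and 34.5 CPM with DMSO in KMS-12, and 58.8 and 58.8 CPM with JQ1 against 72.8 and 67.7 CPM with DMSO in RPMI8226. PES1 passed in no line, and its average was -0.05 (SE 0.06; edgeR adjusted p = 0.537). In KMS-12 BOP1 and PES1 thus had higher JQ1 libraries and WDR12 lower ones with TMM scaling. For PES1, at 0.25 there, this side depends on the scaling, since library size alone shifted the median of all genes in KMS-12 by -0.76.

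RRP1B (ENSG00000160208), a nucleolar protein of the large subunit pathway, rose in every line. It had 199 and 214 CPM with JQ1 against 138 and 154 CPM with DMSO in KMS-11, 146 and 143 CPM with JQ1 against 110 and 114 CPM with DMSO in KMS-12, and 125 and 117 CPM with JQ1 against 81.9 and 82.2 CPM with DMSO in RPMI8226. The groups were separate throughout, and the log2 average was 0.48 (SE 0.05; edgeR adjusted p = 4.58e-07). Its KMS-12 value turned to -0.40 with library size alone. The other rises of this role were EBNA1BP2 at 0.43, GRWD1 at 0.33, the RNA methyltransferase NOP2 at 0.32 and NOC2L at 0.17. The other falls were PPAN at -0.53, MAK16 at -0.25, MRTO4 at -0.21 and GNL3, nucleostemin, at -0.14. Over all roles, 19 of the 29 calls in the average held when any single library was left out. The 10 lost at least once were NOP58, NOP10, UTP4, UTP15, TBL3, RRP9, NOP2, GNL3, MRTO4 and NOC2L, whose values over those fits ran from -0.28 to 0.35.

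**Figure D2:**
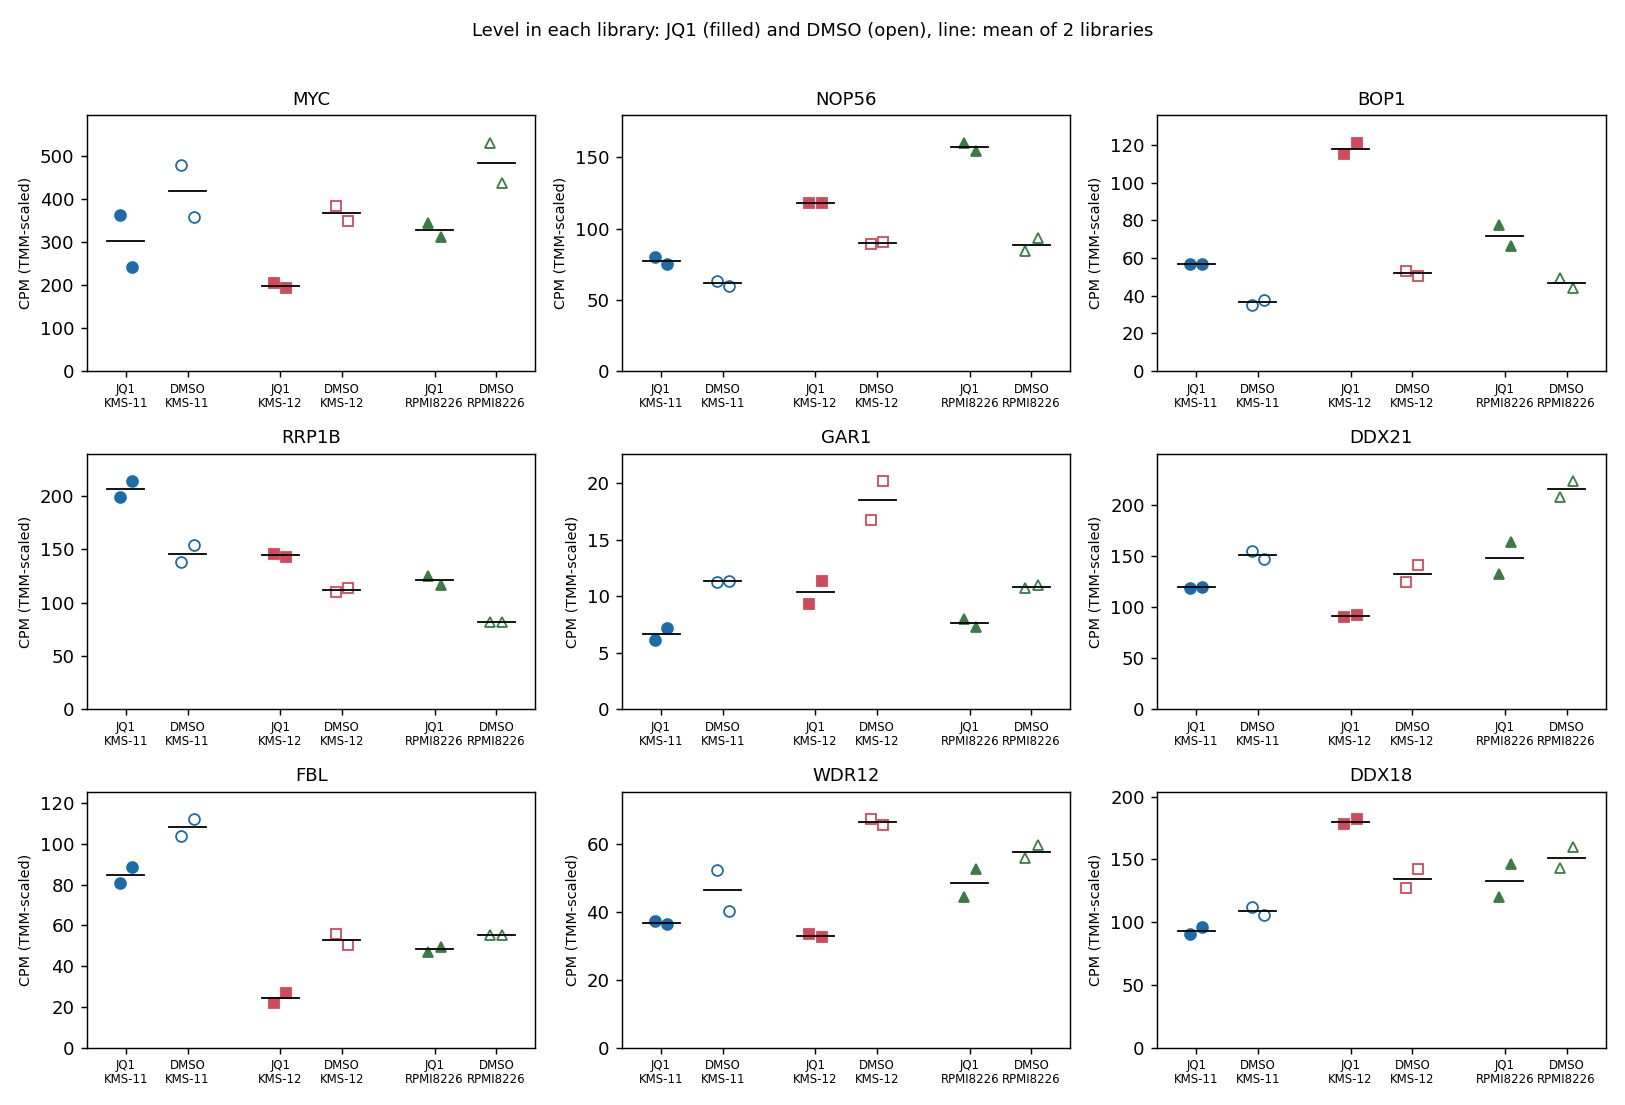
TMM-scaled CPM of MYC and 8 members in each of the 12 libraries, with JQ1 libraries filled, DMSO libraries open and a line at the mean of 2 libraries. NOP56, BOP1 and RRP1B have all JQ1 libraries above the DMSO libraries of their line, GAR1, DDX21, FBL and WDR12 have them below, and DDX18 has them above in KMS-12 only.

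Of the 48 genes, 6 were called in the same direction in all 3 lines. POLR1A, NOP56, BOP1 and RRP1B were higher in all 3 lines (6.04% of all genes tested were), and GAR1 and DDX21 were lower in all 3 (6.37% of all genes). The calls of BOP1 and RRP1B in every line held when any single library was left out. Those of POLR1A, NOP56, DDX21 and GAR1 each failed in at least 1 line. POLR1A failed in all 3, in RPMI8226 (0.24 to 0.30) without any single RPMI8226 library, in KMS-11 without JQ1 replicate 2, and in KMS-12 without JQ1 replicate 2 or DMSO replicate 1. NOP56 failed in KMS-11 without JQ1 replicate 1, at 0.28. DDX21 failed in KMS-11 without JQ1 replicate 1, at -0.33, and without JQ1 replicate 2. GAR1 failed in RPMI8226 (-0.58 to -0.44) without any single RPMI8226 library or either KMS-12 DMSO library. There were 16 members not called in any line (33.4% of all genes tested were not) and 16 called in KMS-12 alone, where 16% of all genes were. No member was called in opposite directions in different lines. In single libraries, both JQ1 values lay above both DMSO values for 16 members in KMS-11 (30% of all genes), 14 in KMS-12 (31.6%) and 10 in RPMI8226 (30.1%). They lay below for 28 members in KMS-12 (40.6%), 17 in RPMI8226 (35.7%) and 14 in KMS-11 (33.5%). Members with separate libraries in KMS-12 were thus more often lower than higher with JQ1, as were all genes tested (40.6% and 31.6%).

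A difference between the lines in the response to JQ1 passed for 14 of the 48 genes (29.2%), against 30.1% of all genes tested (edgeR quasi-likelihood F test over the 3 responses). Among the 10130 genes with a mean of at least 10 CPM, which most members reached, such a difference passed for 5288, a larger share. With library size alone the difference passed for 39 members (81.2%), against 48% of all genes. With MALAT1 left out of the library size it passed for 33 members (68.8%), against 40.1%. With TMM scaling, KMS-12 had the lowest response of the 3 lines in 8 of the 14 and the highest in 5. With single libraries left out in turn, the difference held each time for 5 genes, FBL, DDX18, GRWD1, WDR12 and MAK16, and was lost at least once for the other 9. FBL, described above, had the smallest p. DDX18 (ENSG00000088205), an RNA helicase of the large subunit, came next with opposite signs. It had 90.2 and 96.3 CPM with JQ1 against 112 and 106 CPM with DMSO in KMS-11, 178 and 182 CPM with JQ1 against 127 and 142 CPM with DMSO in KMS-12, and 120 and 146 CPM with JQ1 against 143 and 160 CPM with DMSO in RPMI8226. DDX18 rose in KMS-12 by a log2 value of 0.42 (SE 0.10; edgeR adjusted p = 0.00264), while it stood at -0.23 in KMS-11 and -0.19 in RPMI8226, neither past the test (edgeR adjusted p for the difference = 0.00319). With library size alone its KMS-12 value turned to -0.35, and the difference no longer passed (edgeR adjusted p = 0.336).

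GRWD1 (ENSG00000105447), a histone-binding factor of the large subunit, had 56.7 and 70.6 CPM with JQ1 against 56.9 and 50.2 CPM with DMSO in KMS-11. KMS-12 had 40.9 and 43.8 CPM with JQ1 against 25 and 24 CPM with DMSO, and RPMI8226 had 30.7 and 27.4 CPM with JQ1 against 31.6 and 28.5 CPM with DMSO. It was separate in KMS-12 only, at 0.79 (SE 0.13; edgeR adjusted p for the difference between lines = 0.00445, and 0.94 with library size alone). MAK16 (ENSG00000198042), another large subunit factor, had 21.8 and 22.7 CPM with JQ1 against 19.3 and 19.1 CPM with DMSO in KMS-11. KMS-12 had 27.7 and 26.0 CPM with JQ1 against 41.2 and 38.4 CPM with DMSO, and RPMI8226 had 28.7 and 37.4 CPM with JQ1 against 42.6 and 44.4 CPM with DMSO. It was lower with JQ1 in KMS-12 (-0.57, SE 0.13) and RPMI8226 (-0.40, SE 0.13) and stood at 0.21 in KMS-11 without passing (edgeR adjusted p for the difference = 0.00756). The RPMI8226 call was lost without JQ1 replicate 1, at -0.22, and without either DMSO library. WDR12 and BOP1 differed as well, with edgeR adjusted p of 0.00459 and 0.00788, each with its largest change in KMS-12. The BOP1 difference did not pass with library size alone (edgeR adjusted p = 0.39).

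Without drug, the levels of the 48 genes differed between the lines about as often as those of all genes tested. Per length of merged exons, the mean DMSO levels of the 3 lines ran from 69.0 CPM per kb for NPM1 to 1.07 CPM per kb for NOP2, with a median of 10.3 CPM per kb. NOP10 at 52.1, NCL at 39.1, FBL at 33.2 and DDX21 at 33.1 CPM per kb followed NPM1, and PPAN, LYAR and NOP16 stood next to NOP2 at 3.90, 3.87 and 3.49 CPM per kb. A difference of DMSO levels between the lines passed for 41 of the 48 (85.4%), against 80.2% of all genes tested. Of the 10130 genes with a mean of at least 10 CPM, 9119 passed. KMS-11 was above KMS-12 for 16 members and below it for 16, beside 32.7% and 30.2% of all genes. RPMI8226 was above KMS-11 for 17 and below it for 11 (30% and 28.2% of all genes). RPMI8226 was above KMS-12 for 13 and below it for 14 (33.2% and 29.3%). With TMM scaling no line was thus above the others over the list. KMS-11 against KMS-12 turned to 14 above and 22 below with library size alone (27.7% and 36.2% of all genes), and to 13 and 24 with MALAT1 left out of the library size (26.2% and 38.5%). RPMI8226 against KMS-12 turned to 12 and 19 (29.5% and 33.8%) and to 11 and 21 (28.1% and 35.9%). KMS-12 was then called higher for more members than it was called lower, and the shares of all genes leaned the same way. With TMM scaling, a difference of MYC in DMSO between the lines did not pass (edgeR adjusted p = 0.166).

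**Figure D3:**
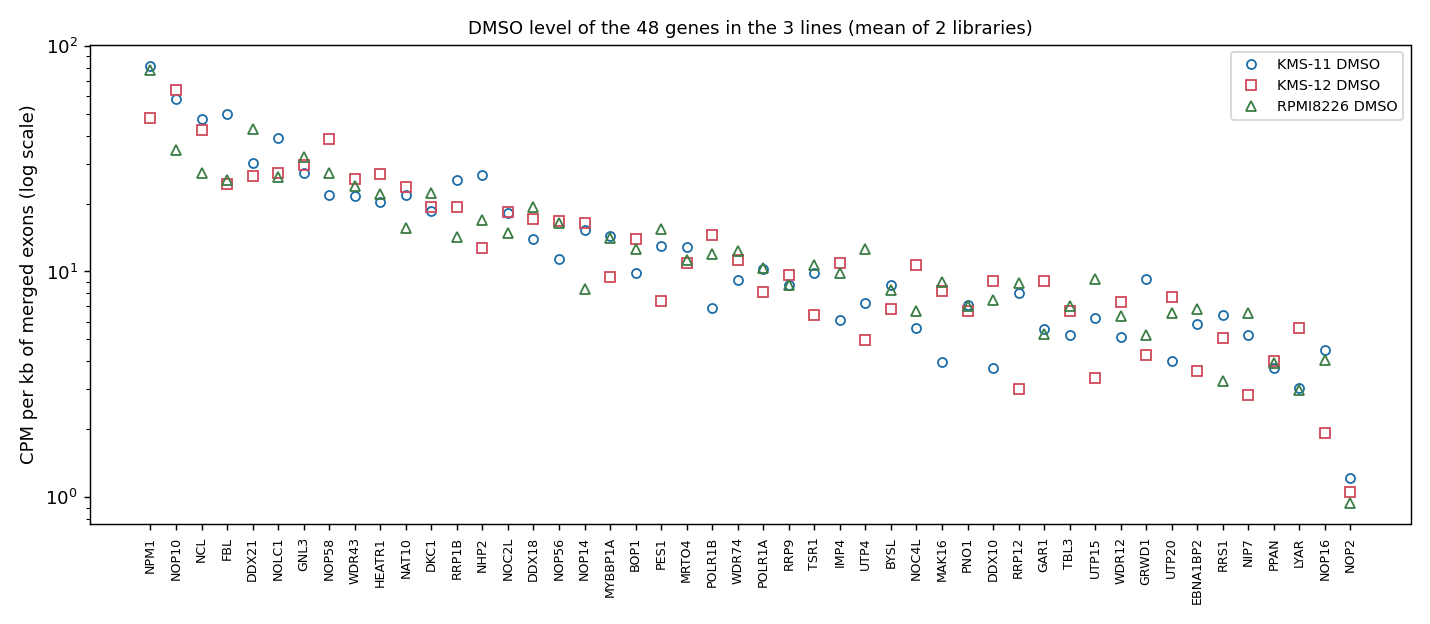
DMSO levels of the 48 genes in CPM per kb of merged exons, on a log axis, as the mean of 2 libraries for KMS-11 (circles), KMS-12 (squares) and RPMI8226 (triangles), ordered by the mean of the 3 lines. NPM1 is at the top and NOP2 at the bottom, and no line stays above the others.

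The 3 members with the smallest p for a difference in DMSO were RRP12, UTP4 and DDX10. RRP12 (ENSG00000052749), which helps to export both subunits, had 73.8 and 77.9 CPM in RPMI8226 DMSO, 74.5 and 62.4 CPM in KMS-11 DMSO and 25.5 and 26.2 CPM in KMS-12 DMSO. RPMI8226 and KMS-11 overlapped, and both lay far above KMS-12, with log2 differences of 1.55 (SE 0.11) for RPMI8226 over KMS-12 and 1.41 (SE 0.11) for KMS-11 over KMS-12 (edgeR adjusted p = 1.17e-09 for any difference). With JQ1, RRP12 had 58.2 and 53.4 CPM in RPMI8226, 62.0 and 68.9 CPM in KMS-11 and 30.9 and 28.9 CPM in KMS-12, so that it fell in RPMI8226 (-0.44, SE 0.11; edgeR adjusted p = 0.00441). UTP4 (ENSG00000141076), of UTP-A, had 71.6 and 71.2 CPM in RPMI8226 DMSO, 41.8 and 40.6 CPM in KMS-11 DMSO and 28.5 and 28.1 CPM in KMS-12 DMSO. The 3 lines were separate from each other (edgeR adjusted p = 4.3e-09). With JQ1 the UTP4 values were 69.8 and 75.6 CPM in RPMI8226, 51.7 and 55.6 CPM in KMS-11 and 32.7 and 29.2 CPM in KMS-12, in the same order of lines. UTP4 rose with JQ1 in KMS-11 (0.38, SE 0.10; edgeR adjusted p = 0.00608), a call lost without KMS-11 JQ1 replicate 2 at 0.33. DDX10 differed by -1.28 (SE 0.11) for KMS-11 over KMS-12 and by 0.99 (SE 0.11) for RPMI8226 over KMS-11, so that KMS-11 had the lowest DMSO level of this helicase (edgeR adjusted p = 2.41e-08 for any difference).

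Scaling decides how the list as a whole is read. The long non-coding RNA MALAT1 took the largest share of reads in every library. It held 16.494% and 14.51% of reads in KMS-11 JQ1 libraries against 3.982% and 3.612% in KMS-11 DMSO, 25.694% and 25.818% in KMS-12 JQ1 against 8.063% and 9.009% in KMS-12 DMSO, and 6.565% and 6.311% in RPMI8226 JQ1 against 4.111% and 4.584% in RPMI8226 DMSO. As a share of all counted reads, the 48 genes held 0.2853% and 0.2999% in KMS-11 JQ1 against 0.3641% and 0.3352% in KMS-11 DMSO. In KMS-12 they held 0.2172% and 0.2221% with JQ1 against 0.3842% and 0.3953% with DMSO, and in RPMI8226 0.3451% and 0.3709% with JQ1 against 0.3532% and 0.3751% with DMSO. The raw share was thus lower with JQ1 in KMS-11 and KMS-12 and overlapped in RPMI8226. After TMM scaling the summed CPM of the 48 genes lay between 3001 and 3398 in all 12 libraries.

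With library size alone, 3 of the 48 were higher and 38 lower in the average, beside 9.01% and 44.1% of all genes. In KMS-12 it was 1 higher and 43 lower, beside 4.41% and 54.4% of all genes, in KMS-11 2 and 22, beside 9.5% and 30.4%, and in RPMI8226 4 and 7, beside 12.7% and 19.5%. Under it the median of all genes shifted by -0.33 for the average, by -0.25 for KMS-11, by -0.76 for KMS-12 and by -0.03 for RPMI8226. The median of the 48 genes was -0.44 in the average and -0.94 in KMS-12 under it, against -0.43 and -0.82 over all genes tested. With the reads of MALAT1 left out of the library size, 5 were higher and 30 lower in the average (14.9% and 34.9% of all genes), and the median of all genes moved by -0.16 in the average and -0.46 in KMS-12. The counts were then 2 higher and 35 lower in KMS-12 (8.57% and 42.6% of all genes), 5 and 10 in KMS-11 (14.8% and 23.5%), and 6 and 5 in RPMI8226 (14% and 18.5%). Of the 12 rises in the average, 8 turned below 0 with library size alone and 3, NOP56, BOP1 and RRP1B, were still called higher. The 8 were POLR1A, UTP4, TBL3, RRP9, DDX10, NOP2, GRWD1 and NOC2L, with values of -0.19 to -0.02. The part of MALAT1 in these differences between scalings beyond that recount was not tested.

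**Figure D4:**
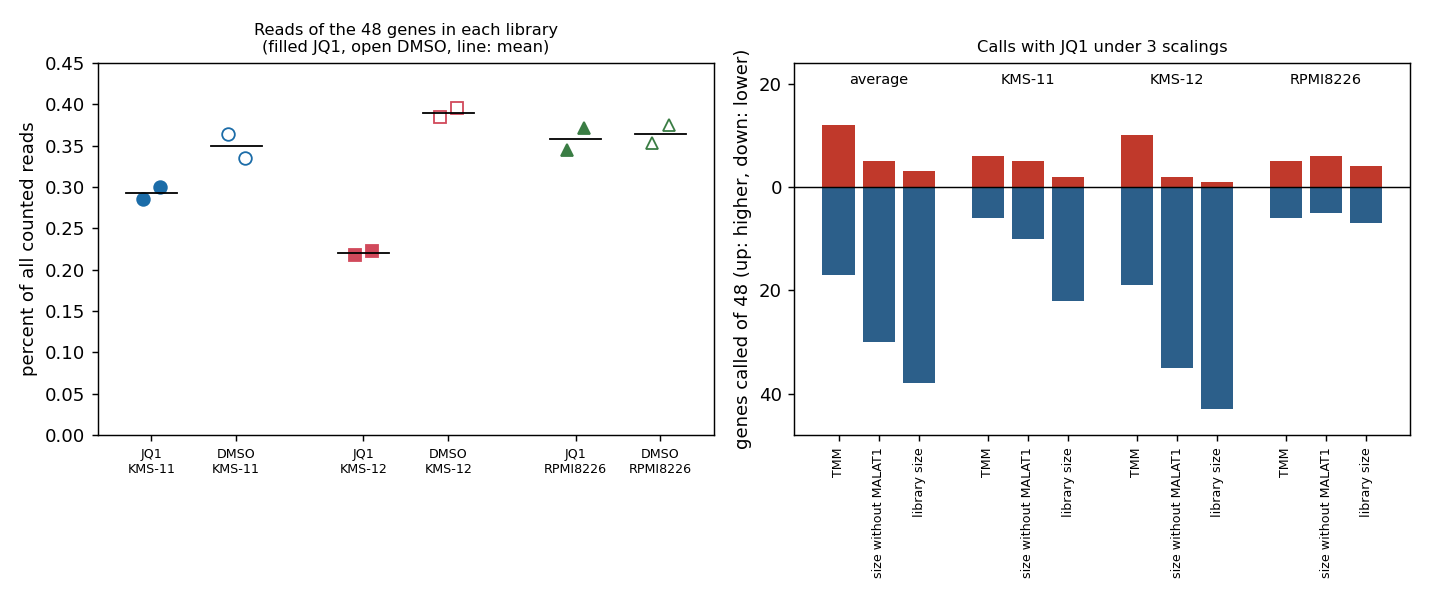
Left, reads of the 48 genes as a percent of all counted reads in each library (JQ1 filled, DMSO open, line at the mean of 2 libraries). Right, members called higher (up) and lower (down) with JQ1 under TMM scaling, library size without MALAT1 and library size alone, where KMS-12 goes to 43 lower of 48 with library size alone and RPMI8226 changes least.

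A further 118 genes of ribosome biogenesis outside the 48 were read beside them. In the average 35 were higher and 34 lower, beside 22.3% and 26.7% of all genes tested, with a median of 0.01. The responses of the lines differed for 36 (30.5%, against 30.1% of all genes). KMS-11 had 33 higher and 19 lower (17.3% and 21.2% of all genes), KMS-12 26 and 35 (20.2% and 25.7%), and RPMI8226 24 and 16 (13.6% and 18.6%). The counts of each list below are for the average and stand beside the same 22.3% higher and 26.7% lower. Among 14 factors of RNA polymerase I and ribosomal DNA, 2 rose and 4 fell. TAF1B, a subunit of the promoter selectivity factor of RNA polymerase I, rose by a log2 value of 0.93 (SE 0.07) and POLR1C by 0.32 (SE 0.09), while POLR1H, a small subunit of the enzyme, fell by 0.87 (SE 0.10) and TCOF1, treacle, fell by 0.38 (SE 0.07). POLR1C turned to -0.03 with library size alone. Of 38 small subunit factors 9 rose and 7 fell, with UTP6 at 0.72 and NOP9 at 0.51 against UTP25 at -1.27 and KRR1 at -0.78.

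Of 40 other large subunit factors 14 rose and 14 fell, among them FTSJ3, a methyltransferase, at 0.65 and the GTPase LSG1 at 0.59 against the helicase DDX54 at -0.48 and NLE1 at -0.64. Of 12 assembly factors of the guide particles 5 rose and 2 fell. RPAP3 and SHQ1, which help to build box C/D and box H/ACA particles, rose by 0.72 and 0.61, and SNU13, a core protein of the box C/D particle, and NAF1, which precedes GAR1 in the H/ACA particle, fell by 0.27 and 0.23. Of 14 genes of the RNA exosome and its partners, which trim the precursor, 5 rose and 7 fell, with MPHOSPH6 at 0.96 and the nuclease XRN2 at 0.46 against EXOSC5 at -1.0 and EXOSC1 at -0.59. The 20 genes named from these lists had edgeR adjusted p of 0.0188 or less in the average.

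Some of the counts are less certain than others. Whether counting used the strand is not given in the sources used here, so reads of overlapping genes on opposite strands may be shared. In GENCODE 29, exons of the opposite strand cover 29.88% of the exon bases of TBL3 (by NOXO1), 27.42% of NHP2 (by RMND5B), 23.15% of HEATR1 (by LGALS8), 20.67% of TSR1 (by SRR) and 20.15% of NIP7 (by COG8). MAK16 shares 19.23% with TTI2, EBNA1BP2 18.76% with CFAP57 and NOP14 17.1% with NOP14-AS1. On the same strand, NOP2 shares 54.41% of its exon bases with a read-through gene (ENSG00000285238) and PPAN shares 56.02% with PPAN-P2RY11, so that the values of NOP2 and PPAN, and the place of NOP2 at the bottom of the levels, are uncertain.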

How the data were processed

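RNA-seq of 12 libraries was used. The deposited values are unnormalized read counts for 60666 Ensembl gene IDs, with 15424512 to 27366499 counts per library. Per the labels' protocols, total RNA was depleted of ribosomal RNA and made into stranded libraries. DESeq2, MACS2, hg38 and GRCh38.p13 appear, with no role, in the submitters' processing notes. The sources used here do not give the aligner, counting program, annotation or strand setting.

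The counts were tested in R 4.3.3 with edgeR 4.0.16. The filter filterByExpr (minimum count 10, minimum total 15) kept 23493 genes (38.7%) and between 99.9% and 99.96% of counts. TMM scaling, robust glmQLFit and quasi-likelihood F tests followed, in 1 fit over the 6 groups, and p-values were adjusted by Benjamini-Hochberg over all 23493 genes. Every adjusted p in the report comes from this fit, with n = 2 libraries per group, unless a setting is named. CPM use TMM-scaled library sizes (marker genes: unscaled totals) and are relative amounts, since no spike-in is described. Levels per kb divide by merged exon length from GENCODE 29. Promoter windows are RefSeq's on GRCh38.p14. Counting error only is covered by the depth given.

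The members and lists were chosen with earlier results of these data known. Values in every library are given for MYC, for up to 3 members of each role with the smallest adjusted p in the average, for the 5 with the smallest p for a difference in response and for the 3 with the smallest p for a difference in DMSO. PES1, which the rule does not take, was added after its values were seen, to complete its complex. The medians of a list stand beside those of all genes in place of a list test. Code was tested on simulated data. As alternatives, library size alone, RLE scaling, TMM after dropping abundant classes (immunoglobulin, histone, mitochondrial, 7SK and 7SL genes), no filter, a filter at a mean of 10 CPM, DESeq2 1.42.0, limma-voom (limma 3.58.1), a block for the replicate number, fits to 1 line, leaving out each library, and, chosen after seeing the data, library size without MALAT1 were run.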

Additional observations from a re-analysis of the deposited data

Results flagged for a closer look

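For 14 of the 48 genes the response to JQ1 differed between the 3 lines by a test of the difference itself (edgeR quasi-likelihood F test over the 3 responses, Benjamini-Hochberg adjusted over 23493 genes), and 30.1% of all genes tested did so. Of the 10130 genes with a mean of at least 10 CPM, 5288 did so. FBL had an adjusted p of 0.000382 and log2 changes of -0.35 for KMS-11, -1.11 for KMS-12 and -0.19 for RPMI8226. For DDX18 it was 0.00319, with -0.23, 0.42 and -0.19 in the same order of lines. GRWD1 had 0.00445 (0.25, 0.79 and -0.04), WDR12 0.00459 (-0.33, -1.01 and -0.25), MAK16 0.00756 (0.21, -0.57 and -0.40) and BOP1 0.00788 (0.64, 1.19 and 0.62).

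The adjusted p was 0.0112 for RRP12 (-0.07, 0.21 and -0.44), 0.0112 for NOP56 (0.33, 0.40 and 0.82), 0.0122 for WDR43 (-0.06, -0.59 and -0.20), 0.0192 for NPM1 (-0.11, -0.54 and -0.03) and 0.0286 for NOP58 (-0.29, -0.35 and 0.13). It was 0.0301 for PES1 (-0.16, 0.25 and -0.26), 0.0352 for NHP2 (-0.24, -0.65 and 0.06) and 0.0381 for LYAR (0.24, -0.48 and 0.33). MALAT1 took 25.694% and 25.818% of the reads in KMS-12 JQ1 libraries and 8.063% and 9.009% in KMS-12 DMSO libraries. Its part in these differences was not tested. With library size alone the difference no longer passed for RRP12 (edgeR adjusted p = 0.502), BOP1 (0.39), PES1 (0.423), DDX18 (0.336) and GRWD1 (0.94). Without 1 library or another, it no longer passed for 9 of the 14, and it held in all 12 such fits for FBL, DDX18, GRWD1, WDR12 and MAK16. Over all 21 alternatives, which include these 12 fits and library size alone, the pass was lost in 2 for DDX18 and 2 for GRWD1. It was lost in 4 for RRP12, 4 for BOP1 and 9 for PES1. NHP2 lost it in 7, NOP58 in 6, NPM1 in 4, WDR43 in 3 and NOP56 in 2. LYAR lost it in 10 of the 20 alternatives that held it, and FBL, WDR12 and MAK16 in 0.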

How the results depend on the processing

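Library size alone gave 3 members higher and 38 lower in the average (9.01% and 44.1% of all genes). It gave 2 and 22 for KMS-11 (9.5% and 30.4%), 1 and 43 for KMS-12 (4.41% and 54.4%), and 39 (81.2%, against 48% of all genes) whose responses differed between the lines. Among the 118 other ribosome biogenesis genes it gave 9 higher and 79 lower in the average, beside the same 9.01% and 44.1%. Library size without MALAT1 gave 5 and 30 in the average (14.9% and 34.9% of all genes), 10 lower in KMS-11 (23.5%), and 2 and 35 in KMS-12 (8.57% and 42.6%). It gave 33 that differed (68.8%, against 40.1%), and 22 and 59 among the other genes in the average, beside the same 14.9% and 34.9%. With library size alone these log2 values turned round: in the average POLR1A to -0.04, POLR1B to -0.29, DDX10 to -0.15, DDX18 to -0.35, GRWD1 to -0.02, UTP4 to -0.18 and POLR1C to -0.03, and in KMS-12 POLR1A to -0.45, NOP56 to -0.37, RRP1B to -0.40 and DDX18 to -0.35. Without MALAT1, DDX18 stood at -0.18 and UTP4 at 0.00 in the average, and in KMS-12 POLR1A at -0.15, NOP56 at -0.07, RRP1B at -0.10 and DDX18 at -0.05. A mean of at least 10 CPM, which 43 members reached, gave 6 higher and 21 lower in the average (34.5% and 36% of all genes so filtered) and 10 lower in KMS-11 (30.1%), and RLE scaling gave 3 higher in RPMI8226. The cause was not tested.

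Leaving out 1 library moved the KMS-11 rises between 3 (without JQ1 replicate 2) and 10 (without DMSO replicate 1) and the falls between 3 (without JQ1 replicate 1) and 6. In KMS-12 rises ran from 6 (without DMSO replicate 1) to 11, and falls from 10 (without JQ1 replicate 1; 12 without JQ1 replicate 2 or DMSO replicate 2) to 20. In RPMI8226 rises ran from 3 to 6 and falls from 2 to 9, with 3 and 2 without JQ1 replicate 1, DMSO replicate 1 or DMSO replicate 2. Members whose responses differed ran from 7 (without KMS-12 JQ1 replicate 1) to 15, with 8 without KMS-12 JQ1 replicate 2 or RPMI8226 DMSO replicate 1 and 9 without KMS-12 DMSO replicate 2. The average kept between 9 and 12 rises and 14 and 19 falls, and MYC stood between -0.74 and -0.55. The spread of the other groups stood in for that of a group left with 1 library.

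Replicate numbers do not pair the libraries by design, and deviations of same-numbered JQ1 and DMSO libraries correlated by 0.106 for KMS-11, 0.0122 for KMS-12 and 0.104 for RPMI8226. With a replicate block 12 members were higher and 17 lower in the average, KMS-11 had 8 and 9, KMS-12 11 and 20 and RPMI8226 6 and 7, and MYC stood at -0.64 in the average. With 2 libraries per group, a member that missed the threshold in a line is not shown to be unchanged there.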
